A study of Mus musculus with 10 samples.

Results

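Iron-sulfur clusters, heme and free iron are handled by a connected set of enzymes and carriers, of which 31 were named for this account: genes of mitochondrial and of cytosolic iron-sulfur assembly, the iron regulatory proteins, iron uptake and storage, and heme synthesis and breakdown. A member was taken by its gene symbol in the platform annotation, and by the probe set of highest mean where it had several. Of the 31, 30 had a probe set with that symbol alone, and all 30 passed the filter on dim rows, so they are 30 of the 14953 genes tested. Fdxr, the reductase that feeds electrons to ferredoxin, was not analysed here. RNA came from B220+ cells sorted out of pre-B colonies after 7 days in methylcellulose, the colonies having been grown from bone marrow of 5 Hspa9+/+ littermates (wild type) and 5 Hspa9+/- mice (heterozygous), each mouse in its own culture. Strain, age and the structure of the disrupted allele are details that the sources used here do not give. RNA of each culture was read on its own Affymetrix Mouse Gene 1.0 ST chip. Values are RMA expression on the log2 scale, and every difference is heterozygous minus wild type. Each genotype has n = 5 arrays unless a result names an omitted one.

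Hspa9 encodes mortalin, the Hsp70 chaperone of the mitochondrial matrix. With its cochaperone Hscb, mortalin takes a newly built iron-sulfur cluster from the scaffold protein Iscu and passes it to carrier proteins, which deliver it to enzymes such as aconitase and the respiratory complexes. Cells sense iron through Aco1 (IRP1), which is a cytosolic aconitase when it holds a cluster and an RNA-binding protein when it does not, and through Ireb2 (IRP2), which is degraded when iron is plentiful. Both bind iron-responsive elements, stabilising the transferrin receptor mRNA and blocking ferritin translation. Much of this control acts on protein and on translation, which arrays do not measure.

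Hspa9 was 9.49, 9.57, 10.36, 10.17 and 9.99 in wild type and 9.52, 8.92, 9.30, 9.21 and 8.97 in heterozygous arrays, where only heterozygous 1 reached the wild type range. The heterozygous mean was 60.3% of the wild type level (difference -0.73, SE 0.185; two-sided exact permutation p = 0.0159, limma adjusted p = 0.345). Array medians ran from 5.38 to 5.49. Marker means use only genes kept after the filter on dim rows. That of the B lineage (11 of 12 genes kept) was 10.83 to 11.07 in wild type and 10.60 to 10.93 in heterozygous arrays. Of 16 macrophage markers 15 were kept, and their mean was 9.19, 7.60, 5.87, 5.72 and 5.85 in wild type 1 to 5 and 7.26, 9.68, 7.22, 6.98 and 7.18 in heterozygous 1 to 5. Wild type 1 and heterozygous 2 stand apart by this measure, and results that rest on them are given with and without them. In these bulk samples, fewer cells of a type and less RNA per cell cannot be told apart.

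No member passed the genotype test, and no other gene did either. Of the 14953 genes, 0% had a limma adjusted p under 0.05, and 0 of the 30 members did (smallest adjusted p = 0.345). At an unadjusted limma p under 0.05 there was 1 member of 30, or 3.33%, against 11.0% of all genes (6.79% higher and 4.25% lower in heterozygous arrays). The arrays of the genotypes did not overlap for 2.28% of all genes and for 0 members. The median difference of the members was 0.11, against 0.058 over all genes, and 23 of 30 (76.7%) lay above 0, against 61.3% of all genes. For 27 members the 95% interval of the difference lay inside a 2-fold change in either direction, and for 20 inside a 1.5-fold change. The 3 whose intervals reached beyond a 2-fold change were Ireb2, Alas1 and Hmox1.

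**Figure D1:**
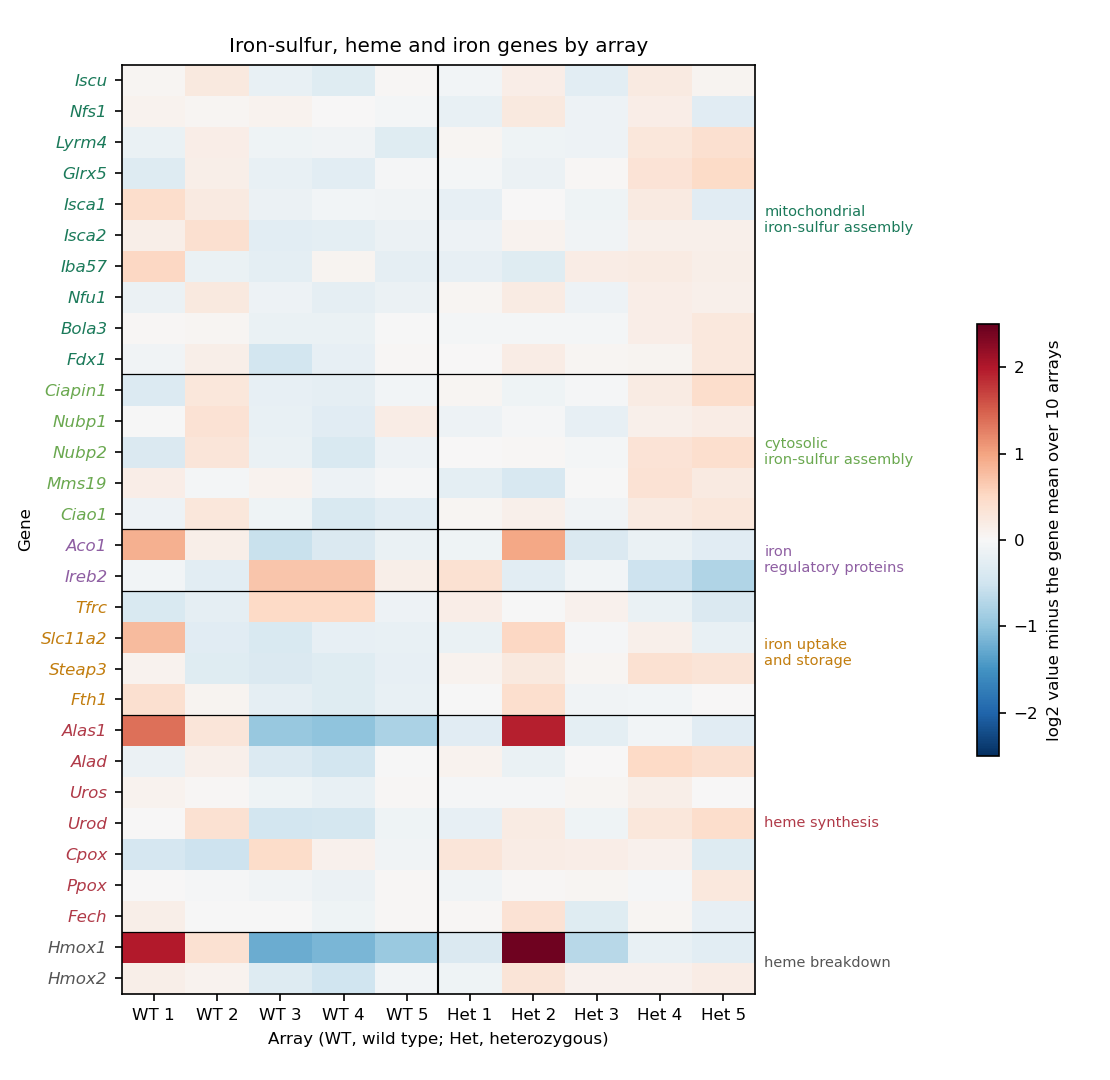
Heat map of the 30 members (rows, by role) in the 10 arrays (columns), as the log2 value minus the gene's mean over all arrays. The strongest colours are Hmox1 and Alas1 in wild type 1 and heterozygous 2, and Ireb2 and Tfrc are high together in wild type 3 and 4.

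**Figure D2:**
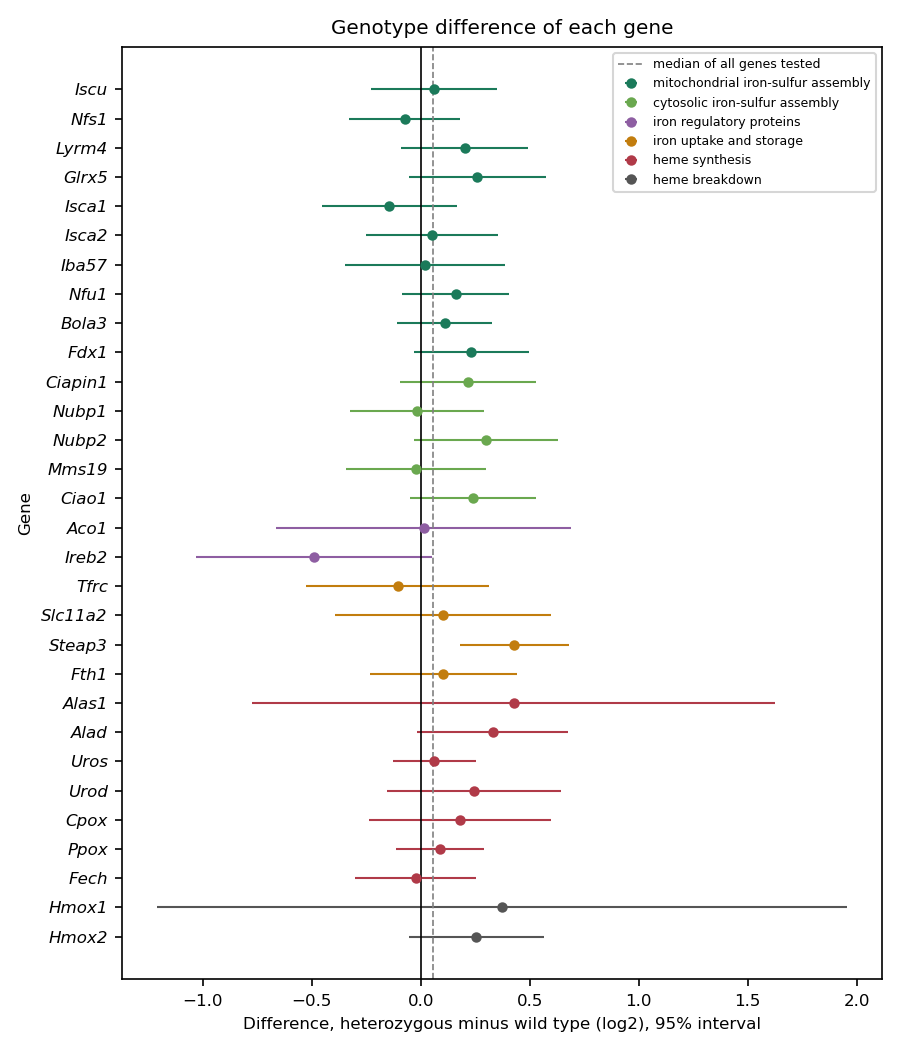
Genotype difference of each member (points, log2, heterozygous minus wild type) with its 95% interval from limma, coloured by role; the dashed line is the median of all genes at 0.058. Intervals of Alas1 and Hmox1 are the widest, and that of Steap3 does not reach 0 although its adjusted p is 0.345.

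Stretches of the RefSeq promoter table (GRCm38.p6) are shown for 4 members. Alas1 is shown because it followed the macrophage markers most closely beside Hmox1. When wild type 2 was left out, 10 of 30 members (33.3%, against 13.6% of all genes) had an unadjusted limma p under 0.05. None passed adjustment, and leaving out any other single array gave 1 to 3 members. Of the 10, Alad, Urod and Nubp2 are shown, the ones in which the E-box CACGTG was found. Mms19 and Uros hold it too, and their differences over all arrays were -0.022 and 0.062. Of the 30 members, 26 had a promoter window. Iscu, Slc11a2, Fech and Hmox1 were not searched. In the others, the 250 bases before each start were searched on both strands. Capitals mark the motif of nuclear respiratory factor 1, which leaves 1 base free, in Alas1, and CACGTG, the E-box, in the others. They are printed 5′ to 3′ in the direction of the gene.
Alas1, chr9:106247910-106247960, minus strand: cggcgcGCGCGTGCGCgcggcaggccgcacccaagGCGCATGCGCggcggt
Alad, chr4:62519910-62519969, minus strand: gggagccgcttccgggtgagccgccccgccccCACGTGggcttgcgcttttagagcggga
Urod, chr4:116994414-116994473, minus strand: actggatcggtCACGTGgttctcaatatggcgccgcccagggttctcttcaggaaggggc
Nubp2, chr17:24885942-24886001, minus strand: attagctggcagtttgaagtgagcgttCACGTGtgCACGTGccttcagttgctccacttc

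The Alas1 stretch holds 2 copies of the first motif, 224 to 215 and 195 to 186 bases before an annotated start. The nuclear respiratory factor 1 motif was found in 5 of the 26 members (19.2%), Isca1, Nubp1, Mms19, Alas1 and Uros, against 7.88% of 11815 kept genes with a window and 3.74% of all 32851 windows. CACGTG was found in 5 members (19.2%), Nubp2, Mms19, Alad, Uros and Urod, against 9.26% of kept genes and 6.02% of all windows. TGACNNNGC, the core of the antioxidant response element, was in 4 members (15.4%), Nfs1, Isca1, Ciapin1 and Ciao1, against 13.3% of kept genes and 10.2% of all windows. The Maf and Bach1 element was in 0 of the 26 members searched, Hmox1 not among them, and in 0.353% of all windows. A match is a run of letters and not a measured binding site, and these counts were not tested.

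The 10 measured mitochondrial assembly genes had differences from -0.14 to 0.26 (median 0.085), 8 of them above 0, and none passed. Iscu, the scaffold on which the cluster is built, was 8.99, 9.19, 8.76, 8.64 and 8.98 in wild type and 8.88, 9.12, 8.69, 9.16 and 9.02 in heterozygous arrays. The genotypes overlapped throughout, with a difference of 0.060 (SE 0.131, 95% interval -0.23 to 0.35, limma adjusted p = 0.848). Iscu has 2 probe sets. The 10 annotated probe sets nearest in number to the one used name genes of chromosome 19, whereas Iscu is on chromosome 5, so which locus that probe set reads is uncertain. The other Iscu probe set, for which 9 of the 10 nearest name chromosome 5 genes, was at 8.31 in wild type and 8.50 in heterozygous arrays (difference 0.19, SE 0.147). The genotypes overlapped in both probe sets.

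Of the partners of Iscu on the building side, the cysteine desulfurase Nfs1 was at -0.074 (SE 0.115) and its stabilising subunit Lyrm4 at 0.20 (SE 0.132). The ferredoxin Fdx1, also listed under mitochondrial assembly, was at 0.23 (SE 0.119, limma adjusted p = 0.494). Fdx1 was 8.09, 8.33, 7.73, 7.98 and 8.23 in wild type and 8.20, 8.38, 8.24, 8.26 and 8.45 in heterozygous arrays, which overlapped. Glrx5, the glutaredoxin that receives the cluster after the chaperone step, was 8.90, 9.36, 9.04, 8.95 and 9.19 in wild type and 9.17, 9.08, 9.25, 9.55 and 9.69 in heterozygous arrays. Its difference was 0.26 (SE 0.142, adjusted p = 0.502), and heterozygous 4 and 5 alone lay above every wild type array. Among the late-acting factors for 4Fe-4S clusters, Isca1 was at -0.14 (SE 0.141), Isca2 at 0.051 (SE 0.138), Iba57 at 0.020 (SE 0.168), Nfu1 at 0.16 (SE 0.111) and Bola3 at 0.11 (SE 0.0990). Iba57, Isca1 and Nfu1 also have 2 probe sets each, and in these genes the differences of the 2 had the same sign. For the Nfu1 probe set not used, the 10 nearest name chromosome 15 genes, whereas Nfu1 is on chromosome 6, so its locus is uncertain. It had a mean of 5.30 and a difference of 0.017. The Iba57 probe set not used had a mean of 4.69, close to the filter limit of 4.52.

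Cytosolic assembly, which equips nuclear and cytosolic proteins with clusters, was measured through 5 genes whose differences ran from -0.022 to 0.30 (median 0.22), and none passed. The scaffold protein Nubp2 was 8.15, 8.80, 8.34, 8.12 and 8.39 in wild type and 8.51, 8.54, 8.47, 8.85 and 8.92 in heterozygous arrays (difference 0.30, SE 0.1498, limma adjusted p = 0.481). All heterozygous arrays lay above every wild type array except wild type 2. Nubp1, with which Nubp2 forms the scaffold, was at -0.016 (SE 0.140), and the difference between the partners was not tested. The electron carrier Ciapin1 was at 0.22 (SE 0.142), and of the targeting complex Ciao1 was at 0.24 (SE 0.131) and Mms19 at -0.022 (SE 0.146).

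The count of members past the unadjusted threshold changed most when wild type 2 was left out. Wild type 2 was the highest wild type array in 11 of the 15 assembly genes and in 13 of all 30 members. Wild type 1 was the highest in 13 members as well, but in 4 of the assembly genes. On the other side, heterozygous 5 was the highest heterozygous array in 8 of the 15 assembly genes and heterozygous 4 in 5. Without wild type 2, 10 of 30 members (33.3%) had an unadjusted limma p under 0.05, against 13.6% of all genes in the same fit. Of the 10, 9 were higher in heterozygous arrays. These were the assembly genes Glrx5, Nfu1, Fdx1, Ciapin1, Nubp2 and Ciao1 (6 of 15), with differences from 0.24 in Nfu1 to 0.41 in Nubp2, the heme synthesis genes Alad at 0.40 and Urod at 0.37, and Steap3 at 0.41. Ireb2 was the lower one, at -0.62. None passed adjustment there either (smallest adjusted p = 0.310). Wild type 2 was singled out after the counts of all single omissions were seen. In a gene where it was the highest wild type array, leaving it out must raise heterozygous minus wild type. The count without it is therefore a description of how much 1 array matters and cannot serve as a test of the members. Leaving out any other single array gave 1 to 3 members. Wild type 2 also had the second highest macrophage mean of its group, at 7.60, and whether that bears on the count was not tested.

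**Figure D3:**
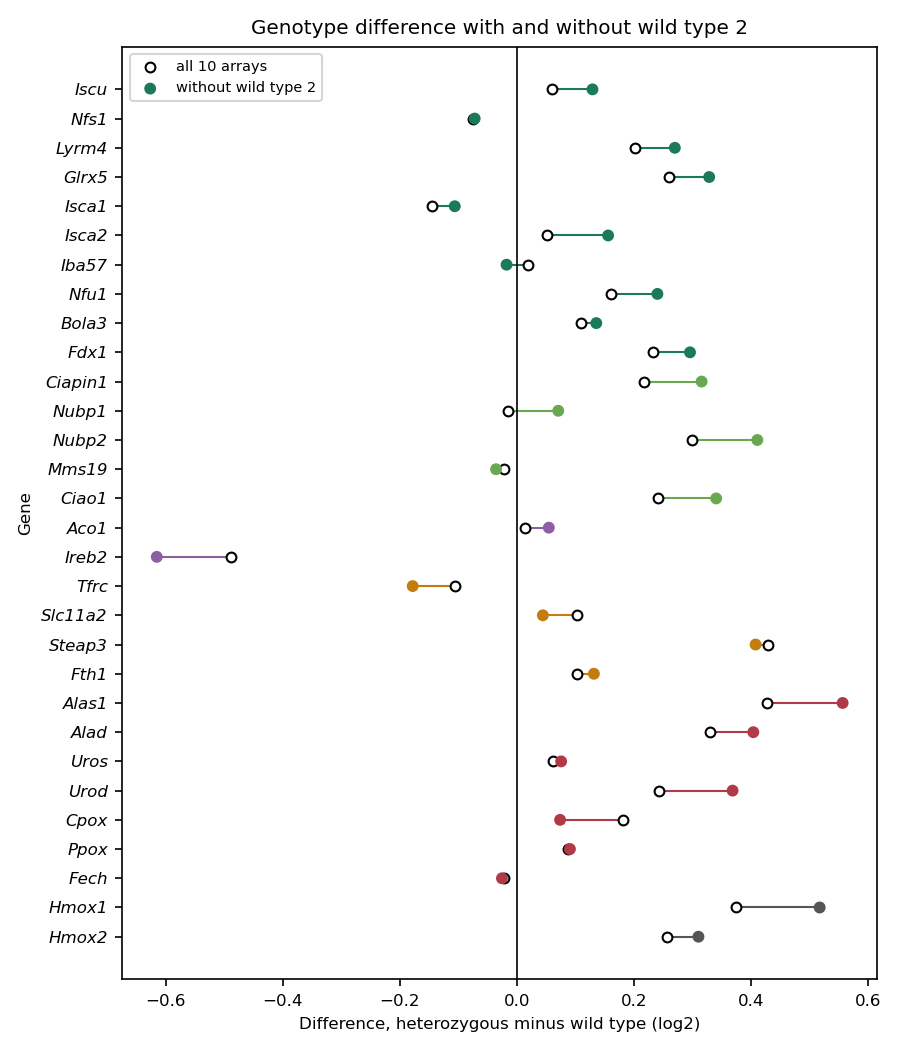
Genotype difference of each member (log2, heterozygous minus wild type) with all 10 arrays (open circles) and without wild type 2 (filled circles, coloured by role). Nubp2 moves to the right, from 0.30 to 0.41, and Ireb2 to the left, from -0.49 to -0.62. Wild type 2 was picked because its omission changed the unadjusted count of members most.

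Of the genes of iron sensing and uptake, Steap3 and Ireb2 had the largest differences. Steap3, the endosomal reductase that turns transferrin-delivered ferric iron into ferrous iron, was 7.78, 7.38, 7.32, 7.39 and 7.49 in wild type and 7.77, 7.93, 7.74, 8.06 and 8.01 in heterozygous arrays. Only wild type 1 reached the heterozygous range. The difference was 0.43 (SE 0.113, 95% interval 0.18 to 0.68), or 135% of the wild type level, with an unadjusted limma p of 0.00293 and an adjusted p of 0.345. It was the single member past the unadjusted threshold and stayed between 0.39 and 0.51 whichever array was left out. With the macrophage mean as a covariate it was 0.38 (SE 0.112, adjusted p = 0.198), and without wild type 1 and heterozygous 2 it was 0.50 (adjusted p = 0.109).

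Ireb2 was 7.01, 6.82, 7.79, 7.79 and 7.24 in wild type and 7.46, 6.83, 7.02, 6.57 and 6.33 in heterozygous arrays. Wild type 3 and 4 were the highest and heterozygous 4 and 5 the lowest, with overlap between. The difference was -0.49 (SE 0.246, 95% interval -1.03 to 0.054, limma adjusted p = 0.486), and it ran from -0.64 to -0.36 with 1 array left out. Aco1, the other iron regulatory protein, was at 0.014 (SE 0.307). Tfrc, the transferrin receptor whose mRNA the regulatory proteins stabilise, was 9.52, 9.67, 10.40, 10.39 and 9.78 in wild type and 10.06, 9.89, 9.999, 9.73 and 9.54 in heterozygous arrays. As with Ireb2, wild type 3 and 4 were highest, and in the heterozygous group 5 was lowest and 1 highest in both genes. The genotype difference of Tfrc was -0.11 (SE 0.191, adjusted p = 0.815). Wild type 3 and 4 were also among the 3 arrays with the lowest macrophage means, and the slopes of Ireb2 and Tfrc on that mean were -0.13 (SE 0.0931, adjusted p = 0.385) and -0.13 (SE 0.0695, adjusted p = 0.253).

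Fth1, the heavy chain of ferritin that stores iron, was 12.99, 12.65, 12.36, 12.28 and 12.40 in wild type and 12.58, 13.01, 12.50, 12.51 and 12.59 in heterozygous arrays. The highest array of each genotype was the one highest in macrophage markers. The difference was 0.10 (SE 0.153, limma adjusted p = 0.777). Slc11a2, the ferrous iron transporter DMT1, was at 0.10 (SE 0.225, adjusted p = 0.851).

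**Figure D4:**
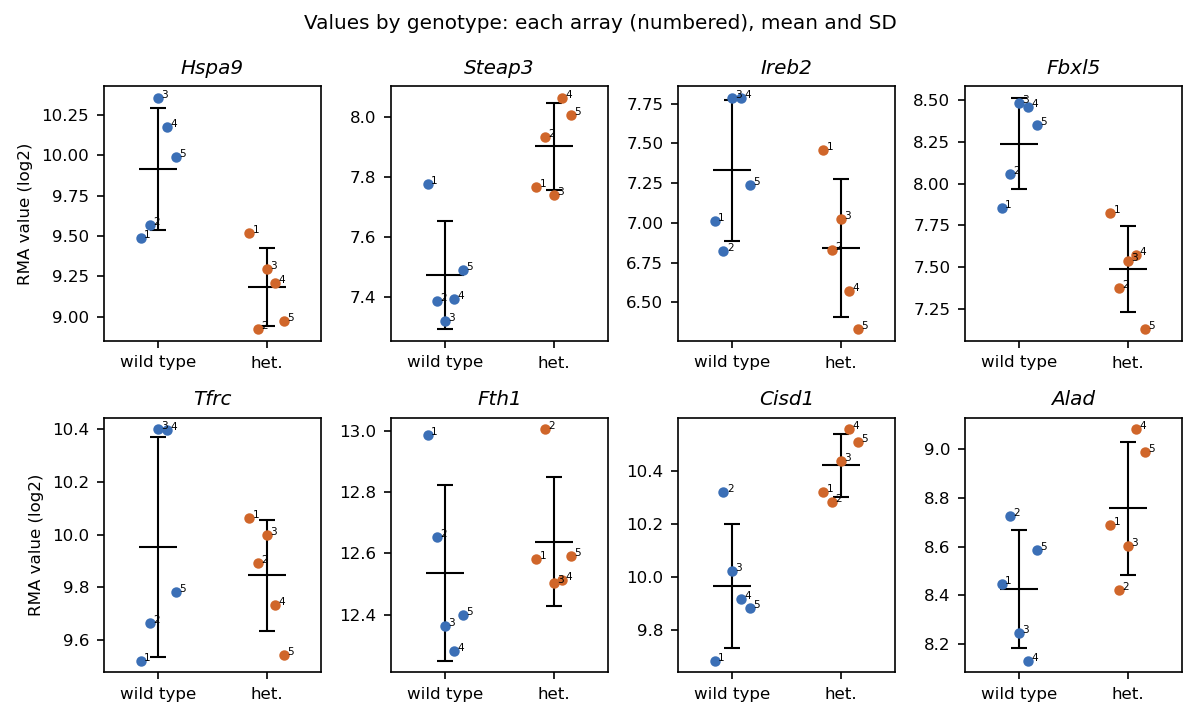
RMA values (log2) of Hspa9, of the members Steap3, Ireb2, Tfrc, Fth1 and Alad, and of the related genes Fbxl5 and Cisd1 in each array (points numbered by replicate), with the mean and SD of each genotype. Fbxl5 is the one panel where the genotypes do not overlap, and in Steap3 only wild type 1 reaches the heterozygous arrays.

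Heme synthesis was measured at 7 of its steps. The differences ran from -0.022 to 0.43 with a median of 0.18, 6 of 7 above 0, and none passed. Alad, which forms porphobilinogen, was 8.45, 8.73, 8.25, 8.13 and 8.59 in wild type and 8.69, 8.42, 8.60, 9.08 and 8.99 in heterozygous arrays. Heterozygous 4 and 5 lay above every wild type array and heterozygous 2 below 3 of them, for a difference of 0.33 (SE 0.156, limma adjusted p = 0.466). Of the porphyrin-forming enzymes that follow, Uros was at 0.062 (SE 0.0865), Urod at 0.24 (SE 0.182), Cpox at 0.18 (SE 0.190) and Ppox at 0.088 (SE 0.0919). Fech, which inserts iron into the ring and itself carries an iron-sulfur cluster, was at -0.022 (SE 0.126, adjusted p = 0.947). Of 11 markers of erythroid cells, the main heme producers of marrow, 5 were kept after the filter. The mean of these 5 was low, at 4.86 to 5.32 in wild type and 5.05 to 5.38 in heterozygous arrays. The filter limit was 4.52, so dimmer markers are not in this mean.

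The rate-limiting enzyme Alas1 and the heme oxygenase Hmox1 varied far more between arrays than between genotypes. Alas1 was 9.09, 8.02, 6.77, 6.71 and 6.93 in wild type and 7.45, 9.66, 7.47, 7.65 and 7.44 in heterozygous arrays. Hmox1, which breaks heme down and releases its iron, was 10.78, 9.17, 7.55, 7.65 and 7.85 in wild type and 8.43, 11.22, 8.09, 8.60 and 8.52 in heterozygous arrays. In both genes wild type 1 and heterozygous 2 were far above the others and wild type 2 came next, the order of the macrophage means. The genotype differences were 0.43 (SE 0.545, limma adjusted p = 0.738) for Alas1 and 0.37 (SE 0.719, adjusted p = 0.827) for Hmox1. Hmox2, the constitutive heme oxygenase, ranged less and was at 0.26 (SE 0.140, adjusted p = 0.503).

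In a fit of each gene on genotype and the macrophage marker mean, 5 of the 30 members (16.7%) had a slope above 0 that passed the threshold, against 10.2% of all genes, and 0 members a slope below 0, against 7.77% (17.9% of all genes in either direction). Per log2 unit of the macrophage mean, Hmox1 rose by 0.97 (SE 0.0641, limma adjusted p = 1.01e-06) and Alas1 by 0.74 (SE 0.0494, adjusted p = 1.11e-06). Aco1 rose by 0.40 (SE 0.0474, adjusted p = 0.000121), Slc11a2 by 0.25 (SE 0.0570, adjusted p = 0.0108) and Fth1 by 0.19 (SE 0.0326, adjusted p = 0.00201). Aco1 was 7.60, 6.87, 6.15, 6.36 and 6.55 in wild type and 6.60, 7.67, 6.34, 6.55 and 6.43 in heterozygous arrays, so it too was highest in wild type 1 and heterozygous 2. Slc11a2 was 7.38, 6.31, 6.20, 6.39 and 6.41 in wild type and 6.41, 7.11, 6.55, 6.72 and 6.41 in heterozygous arrays. Its slope was 0.15 without wild type 1 (limma adjusted p = 0.265), where 9.10% of all genes and 4 members passed. The part of macrophage RNA in these 5 genes was not tested beyond this fit. The slope of Hspa9 itself was -0.19 over all 10 arrays (limma adjusted p = 0.0315), and it is not given here without wild type 1 and heterozygous 2. In this fit the genotype difference of Hspa9 was -0.58 (SE 0.135, limma adjusted p = 0.142).

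Without both wild type 1 and heterozygous 2, only 1.42% of all genes passed on the slope, and of the members Hmox1 at 0.80 (limma adjusted p = 0.0273) and Alas1 at 0.65 (adjusted p = 0.0202) still did. Aco1 was then at 0.28 (adjusted p = 0.275), Fth1 at 0.17 (adjusted p = 0.337) and Slc11a2 at -0.039 (adjusted p = 0.886). The slope of Slc11a2 thus changed direction without them, while those of Aco1 and Fth1 kept theirs. With the macrophage mean in the fit, the genotype differences of Hmox1 and Aco1 turned to -0.42 (SE 0.163, adjusted p = 0.274) and -0.31 (SE 0.120, adjusted p = 0.276). At an unadjusted p under 0.05 that fit had 3 members, Hmox1, Aco1 and Steap3, against 15.0% of all genes.

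**Figure D5:**
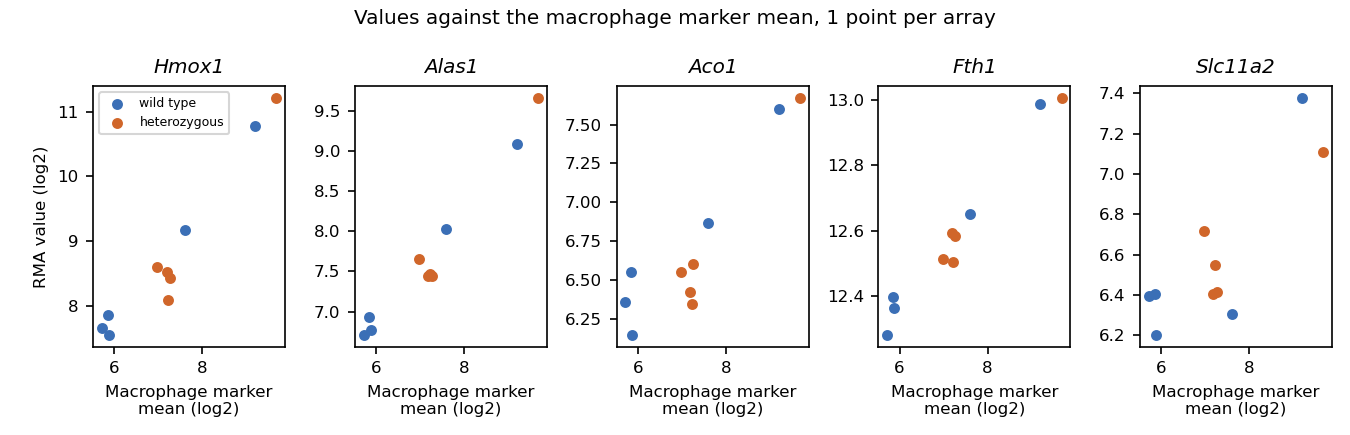
RMA value (log2) of Hmox1, Alas1, Aco1, Fth1 and Slc11a2 against the mean of 15 macrophage markers (log2), 1 point per array, coloured by genotype. Wild type 1 and heterozygous 2 are the points at the right; Hmox1 and Alas1 rise across the other 8 arrays too, with slopes of 0.80 and 0.65, and Slc11a2 does not (-0.039).

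Other genes of the same pathways were taken from 3 lists. Of 13 further assembly genes, Hspa9 among them, 0 passed in either direction over all genes. The share of 11.0% of all genes is no fair measure for this list, because Hspa9 was disrupted by design and is counted in it. With Hspa9, 3 of the 13 had an unadjusted limma p under 0.05 (23.1%). Beside Hspa9 these were Cisd1 (mitoNEET), an iron-sulfur protein of the outer mitochondrial membrane, at 0.45 (SE 0.122, adjusted p = 0.345), and Bola2, a cytosolic partner of glutaredoxin, at 0.35 (SE 0.136, adjusted p = 0.406). Cisd1 was 9.68, 10.32, 10.02, 9.92 and 9.88 in wild type and 10.32, 10.28, 10.44, 10.56 and 10.51 in heterozygous arrays, and only wild type 2 reached the heterozygous range.

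Of 30 further iron and heme genes, 0 passed in either direction and 2 had an unadjusted p under 0.05 (6.67%). Fbxl5 encodes the iron-sensing subunit of the ubiquitin ligase that marks Ireb2 protein for degradation. Fbxl5 was 7.85, 8.06, 8.48, 8.46 and 8.35 in wild type and 7.82, 7.38, 7.54, 7.57 and 7.13 in heterozygous arrays. All heterozygous arrays lay below all wild type arrays, the nearest being heterozygous 1 and wild type 1. The difference was -0.75 (SE 0.160, 95% interval -1.10 to -0.40, 59.4% of the wild type level, limma adjusted p = 0.252), and of the alternatives run it passed only with array weights (-0.79, adjusted p = 0.0274), whose estimation stopped before it converged. Without the 2 macrophage-rich arrays it was -0.82. Abcg2, an exporter that can carry porphyrins, was at 0.44 (SE 0.142, adjusted p = 0.349), and Tfr2, the second transferrin receptor, at 0.20 (SE 0.102, adjusted p = 0.494) with a wild type mean of 4.68, close to the filter limit.

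Of 30 proteins that carry a cluster or heme, such as respiratory subunits and DNA repair enzymes, 0 passed and 0 had an unadjusted limma p under 0.05, against 11.0% of all genes. Their median difference was 0.058, the same as that of all genes at 2 significant digits. The smallest p belonged to Etfdh, the ubiquinone oxidoreductase of fatty acid oxidation, at -0.19 (SE 0.108), the repair helicase Ercc2 at 0.29 (SE 0.174) and the tRNA-modifying enzyme Cdkal1 at -0.25 (SE 0.155).

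Markers of other cell types were read in the same arrays, and none of them passed adjustment. The plasmacytoid dendritic cell mean (5 of 5 genes kept) was 6.16 to 7.14 in wild type and 6.78 to 8.29 in heterozygous arrays. Of these genes 4 had an unadjusted limma p under 0.05, all higher in heterozygous arrays, against 11.0% of all genes in either direction. The T cell and NK cell mean (5 of 8 kept) was 5.28 to 6.06 and 6.26 to 6.51, with 5 such genes, all higher in heterozygous arrays too. Neutrophil markers (12 of 12) were 4.95 to 6.84 and 5.53 to 7.55, and megakaryocyte markers (4 of 6) 4.93 to 7.54 and 5.25 to 7.79, each with 0 such genes. The part of these cells in the differences of Steap3, Fbxl5 and Cisd1 was not tested.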

How the data were processed

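Labels put 5 arrays in each genotype. The deposited log2 values are gene-level RMA expression made by the authors in Affymetrix Expression Console, per the labels; the sources used here give no version or genome build. RMA removes most of any shift shared by all genes. Of 35556 probe sets, 21789 had 1 gene symbol in the platform annotation, and 21698 of these matched the GRCm38.p6 RefSeq gene table, used for names. For each symbol the probe set of highest mean was taken (19938 genes), and genes whose mean did not exceed the 25th percentile of all (4.52 log2) were dropped. Differences were fitted with limma 3.58.1 in R 4.3.3 over the 14953 genes kept, with Benjamini-Hochberg adjustment and a threshold of 0.05; the fit was tested on simulated data. The number of arrays limits the precision. The macrophage slope comes from a limma fit on genotype and the macrophage marker mean. Alternatives were other filters, normalizations, variance models and weights, a replicate block, the macrophage mean as covariate, and arrays left out. Every member could be named; from each further pathway list the 3 genes of smallest limma p were named. Members, lists and tests were chosen with earlier results of these data known.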

Additional observations from a re-analysis of the deposited data

Results flagged for a closer look

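In groups of 5 arrays, the gap of the highest or lowest array to the next was compared with the whole range of the group in 78 groups (each named gene in each genotype), and 7 were beyond the 95% critical value of 0.71; chance alone gives about 1 in 20 groups. Heterozygous 2 was far above the other heterozygous arrays in Hmox1 (11.22, next 8.60), Alas1 (9.66, next 7.65), Aco1 (7.67, next 6.60) and Fth1 (13.01, next 12.59). This is the array with the highest macrophage marker mean, 9.68. Wild type 1, at 9.19 for that mean, was far above the other wild type arrays in Slc11a2 (7.38, next 6.41). Wild type 2, the array whose omission changed the unadjusted count of members most, stood above its group in Nfu1 (9.76, next 9.40). Heterozygous 1 stood above its group in Cdkal1 (6.92, next 6.67).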

How the results depend on the processing

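No member passed the adjusted genotype threshold under any of the 20 alternatives. The count over all genes, 0, became 137 with array weights and 26 without wild type 1 and heterozygous 2, and ran from 0 to 22 with 1 array left out (22 without wild type 1, 3 without heterozygous 2). The count of members at an unadjusted p under 0.05, 1, became 2 with quantile normalization (8.97% of all genes) and 3 with cyclic loess (9.74%). It was 4 with array weights (13.3% of members against 20.6% of all genes) and 3 with the macrophage covariate (15.0%). Without both macrophage-rich arrays it was 2 (16.1%). With 1 array left out it ran from 1 to 10, against 7.00% to 15.0% of all genes. The slope count, 5 (where 17.9% of all genes passed), became 14 with array weights (44.5%) and 2 without both arrays (1.42%). The array weights stopped before they converged, so every value given with them rests on an unfinished estimate. The median difference of members ran from 0.029 (macrophage covariate, where that of all genes was higher, at 0.054) to 0.15 (without wild type 1, against 0.056), and was 0.13 with quantile normalization against 0.014 over all genes. The labels do not state whether replicate numbers pair the samples. Deviations of same-numbered arrays correlated above 0.1 in 3 of 5 pairs, from -0.53 for number 1 to 0.53 for number 3. Of the wild type arrays, 0 of 5 correlated best with their own number. The macrophage-rich arrays, wild type 1 and heterozygous 2, carry different numbers, so this check cannot decide on pairing. With the replicate block 0 genes passed by genotype, and 1 member (3.33%) had an unadjusted p under 0.05, against 8.96% of all genes. The slope count was then 3, where 4.19% of all genes passed. Hmox1, Alas1 and Slc11a2 passed, while Aco1 (limma adjusted p = 0.0606) and Fth1 (adjusted p = 0.227) did not.

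No gene passed the genotype threshold in the main fit, so all single genes started on the same side of it. Of 759 values of single genes under alternatives, 713 kept their direction and their side of the threshold and 45 changed sign. With the macrophage covariate these were Aco1 at -0.31, Alas1 at -0.17, Fth1 at -0.050, Hmox1 at -0.42, Iba57 at -0.019, Isca2 at -0.032, Iscu at -0.0013, Slc11a2 at -0.10 and Mms19 at 0.012. Without both arrays they were Aco1 at -0.00051 and Mms19 at 0.11. Iba57 was at -0.029 and -0.038 with quantile normalization and cyclic loess, Mms19 at 0.0083 and 0.0067, and at 0.0022 with array weights, and Nubp1 at 0.011 with quantile normalization. With 1 array left out, Aco1 ran from -0.22 to 0.24, Alas1 from -0.0047 to 0.82, Fech from -0.12 to 0.052, Hmox1 from -0.19 to 0.92, Iba57 from -0.041 to 0.15, Isca2 from -0.0077 to 0.16, Iscu from -0.0077 to 0.13, Mms19 from -0.12 to 0.073, Nubp1 from -0.091 to 0.071, Slc11a2 from -0.016 to 0.31 and Tfrc from -0.21 to 0.0051. The cause of these changes was not tested.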
